A study of Rattus norvegicus with 10 samples.

Results

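Lipolysis enzymes and lipid droplet coats were followed in rat skeletal muscle through 8 genes: G0s2, Abhd5, Pnpla2, Lipe, Mgll, Plin2, Plin4 and Plin5. Members were all probe sets that the annotation of the array platform pairs with one of these genes alone, which gave 14 of the 31042 probe sets other than array controls. A probe set is a group of short probes on the array that is read out as 1 signal. Of the 14, 13 had a mean signal of at least 19.23 over all arrays and were among the 15521 probe sets tested, and the one that did not was Mgll 1375355_at. Probe sets are named by their identifier on the array, and where a gene has several, the brightest comes first.

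The muscle was gastrocnemius, a calf muscle, from male Wistar rats that were 6 weeks old when the feeding began. Calorie restriction (CR) groups received 5%, 10%, 20% or 30% less of a purified AIN-93G diet than the ad libitum intake, for 1 month or for 1 week, and each duration had its own control group on the full amount. All rats, controls included, were fasted for 16 h before collection, so every level is that of fasted muscle. RNA of 5 rats per group was pooled on 1 array, which gives 8 restricted and 2 control arrays, no replicate array in any group and no measure of the spread between animals. The 1-month animals were also older at collection than the 1-week animals, so that duration and age cannot be told apart.

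Triacylglycerol inside a muscle fibre is stored in lipid droplets and released one fatty acid at a time. Pnpla2 (adipose triglyceride lipase, ATGL) takes off the first fatty acid, Lipe (hormone-sensitive lipase) acts on the resulting diacylglycerol and Mgll (monoglyceride lipase) on the last step, while Abhd5 (CGI-58) activates Pnpla2 and G0s2 (G0/G1 switch 2) binds and inhibits it. Perilipins coat the droplet surface: Plin2 covers droplets in most cells, Plin5 is the coat of oxidative tissues that brings droplets to mitochondria, and Plin4 is abundant in fat and muscle.

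The 8 genes lie on 6 chromosomes in the RefSeq annotation of the rat assembly GRCr8. G0s2 lies at chr13:107335036-107335948, Pnpla2 at chr1:205982279-205987361, Lipe at chr1:90093433-90112117, Mgll at chr4:122749436-122851440, Plin2 at chr5:106202634-106258748 and Abhd5 at chr8:130877834-130903947. Plin4 at chr9:1016334-1025249 and Plin5 at chr9:1026910-1033352 are neighbours with 1660 bases between them, both on the minus strand.

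Promoters of G0s2, Pnpla2, Plin4 and Plin2 are shown, chosen among the genes with differences by restriction or duration described below, which also include Abhd5. Each runs from 250 bases before to 50 bases after a transcription start, 5′ to 3′, as RefSeq gives it for GRCr8, and capitals mark matches to 6 short motifs searched on both strands. G0s2 is at chr13:107335899-107336198 on the minus strand, Pnpla2 at chr1:205982029-205982328 on the plus strand, Plin4 at chr9:1025200-1025499 on the minus strand and Plin2 at chr5:106228969-106229268 on the minus strand. For Plin4 the first of 5 starts in the table was taken, and for Plin2 the first of 2.
G0s2: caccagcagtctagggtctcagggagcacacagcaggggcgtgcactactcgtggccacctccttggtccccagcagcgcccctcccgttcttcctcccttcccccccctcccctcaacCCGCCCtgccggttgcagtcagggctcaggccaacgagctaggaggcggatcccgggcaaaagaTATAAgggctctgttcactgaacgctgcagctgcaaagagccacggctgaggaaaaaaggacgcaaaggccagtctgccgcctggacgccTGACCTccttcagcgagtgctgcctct
Pnpla2: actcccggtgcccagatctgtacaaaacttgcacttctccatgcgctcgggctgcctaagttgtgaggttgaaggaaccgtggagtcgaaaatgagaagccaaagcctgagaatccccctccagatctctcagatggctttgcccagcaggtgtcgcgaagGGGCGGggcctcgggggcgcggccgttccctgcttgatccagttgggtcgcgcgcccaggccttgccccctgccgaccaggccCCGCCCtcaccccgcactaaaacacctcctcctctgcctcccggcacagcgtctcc
Plin4: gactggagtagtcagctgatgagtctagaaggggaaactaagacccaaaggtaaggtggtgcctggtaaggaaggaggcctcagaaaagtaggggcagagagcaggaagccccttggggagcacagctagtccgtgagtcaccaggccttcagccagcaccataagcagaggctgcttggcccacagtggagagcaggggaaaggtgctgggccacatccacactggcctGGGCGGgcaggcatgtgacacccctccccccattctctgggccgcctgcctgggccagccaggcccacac
Plin2: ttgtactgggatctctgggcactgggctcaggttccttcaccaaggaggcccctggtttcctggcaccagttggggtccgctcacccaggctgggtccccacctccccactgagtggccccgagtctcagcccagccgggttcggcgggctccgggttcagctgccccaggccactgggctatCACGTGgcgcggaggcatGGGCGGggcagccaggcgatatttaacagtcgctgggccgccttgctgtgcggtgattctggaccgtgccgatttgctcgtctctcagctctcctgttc

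The motifs were the E-box CACGTG, a forkhead site GTAAACA, the cyclic AMP response element TGACGTCA, the nuclear receptor half-site AGGTCA, the TATA element with the letters TATAA, and the GC box GGGCGG, and none of the matches in the printed sequences overlapped another. Of 27457 rat promoters of this length, 1 per gene, 6.65% held the E-box, 3.76% the forkhead site, 1.91% the cyclic AMP element, 15.7% the half-site, 26.1% TATAA and 34.9% the GC box. The G0s2 promoter held TATAA 67 bases upstream of the start, a GC box 131 bases upstream and a half-site just downstream of the start. Plin2 held an E-box 67 bases and a GC box 49 bases upstream, while Plin4 held 1 GC box and Pnpla2 held 2. All 7 member promoters in the table held a GC box, 3 the half-site (G0s2, Plin5 and Abhd5), 2 the E-box (Plin2 and Mgll), 2 TATAA (G0s2 and Plin5), and none the forkhead site or the cyclic AMP element. The printed promoters had 61.7% to 65.7% G and C, against a median of 52.3% over all promoters. These matches describe the letters of the windows and are not measured binding.

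Both arrays with a doubtful label entered most comparisons. A description line of the 1-week control states restricted feeding and one of the 1-week 5% CR array states the control diet, the opposite of their titles and of their restriction labels. Titles were followed here, and the results are also given with both arrays exchanged. The 1-week control stood apart from the 1-week restricted arrays in slow fibre genes, whose mean log2 signal was 9.08 to 10.13 on the restricted arrays, against 8.28 on the control. At 1 month the same mean was 9.19 to 9.76 on restricted arrays and 9.68 on the control. Defining muscle genes were bright on every array, with Acta1 (skeletal actin, signal 8373 to 13164), Ckm (muscle creatine kinase, 7756 to 11858) and Mb (myoglobin, 6650 to 10121). The summed signal of 6 muscle genes was 34053 to 40391 on restricted arrays against 47425 in the control at 1 month. At 1 week it was 43954 to 46225 against 40727. For 11 fast fibre genes the sums were 74105 to 94459 against 112959 at 1 month, and 100895 to 104150 against 92912 at 1 week.

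Signals below are MAS5 intensities (the array software's summary of a probe set, on a linear scale) after each array was brought to a trimmed mean of 100. Differences are in log2 of that signal, from linear models fitted with limma to all tested probe sets, and adjusted p-values are Benjamini-Hochberg values over all 15521. The spread in these models comes from arrays of different levels and not from replicates, and 10 arrays limit their precision. Restricted against control compares the 8 restricted with the 2 control arrays with duration as a factor, and the dose trend is the slope per 10 percentage points of restriction. Where groups of arrays are said not to overlap, or to lie beyond both controls, the share of all tested probe sets doing so was not counted.

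G0s2 was lower on every restricted array than on the control of its duration. After 1 month its signal was 228, 121, 172 and 274 at 5%, 10%, 20% and 30% CR, against 1221 in the control. At 1 week the signal was 253, 129, 49.3 and 57.5 at the same levels, against 439 in the control. Restricted and control arrays did not overlap at either duration, so all 8 ratios were below 0, as in 8.4% of all tested probe sets. All 8 restricted arrays also lay below the lower of the 2 controls, and the share doing so was not counted. Log2 ratios to the control ran from −3.33 to −2.16 at 1 month and from −3.16 to −0.80 at 1 week. The mildest restriction at 1 week gave the smallest difference, and at 1 month the 5% group was already at 0.187 of the control.

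Over all arrays G0s2 was lower by restriction by 2.43 ± 0.44 on the log2 scale (5.37-fold, limma estimate ± SE, adjusted p = 0.011). It was the 1 member probe set called lower of 13 tested, where 0.876% of all tested probe sets were called lower. It was also the only member whose 8 ratios were each at least 1.5-fold lower, a pattern held by 27 probe sets, or 0.174% of those tested. In a bulk sample, fewer cells of a type and less RNA per cell cannot be told apart. With the 1-week control and 5% CR arrays exchanged the difference was −1.93 (adjusted p = 0.388), and with both left out it was −2.69 (adjusted p = 0.0238). Without the 1-month control it was −2.17 (adjusted p = 0.172), and without the 1-week control alone −2.69 (adjusted p = 0.105).

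Along the levels of restriction, G0s2 ran in a different order at each duration. At 1 week the signal fell with each step to 20% CR, whereas at 1 month it was lowest at 10% CR and higher at 20% and 30% CR. The slope over all 10 arrays was −0.75 ± 0.21 per 10 percentage points (adjusted p = 0.0889), and over the 8 restricted arrays alone it was −0.33 ± 0.20 (adjusted p = 0.6). With 1-week arrays alone the slope was −1.04 (adjusted p = 0.0136), and with 1-month arrays alone −0.47 (adjusted p = 0.697). The limma test of the difference between these slopes, 1 month minus 1 week, gave 0.57 ± 0.41 (adjusted p = 0.875). The difference of the restricted against control contrast between 1 month and 1 week was −0.52 ± 0.91 (adjusted p = 0.95).

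**Figure D1:**
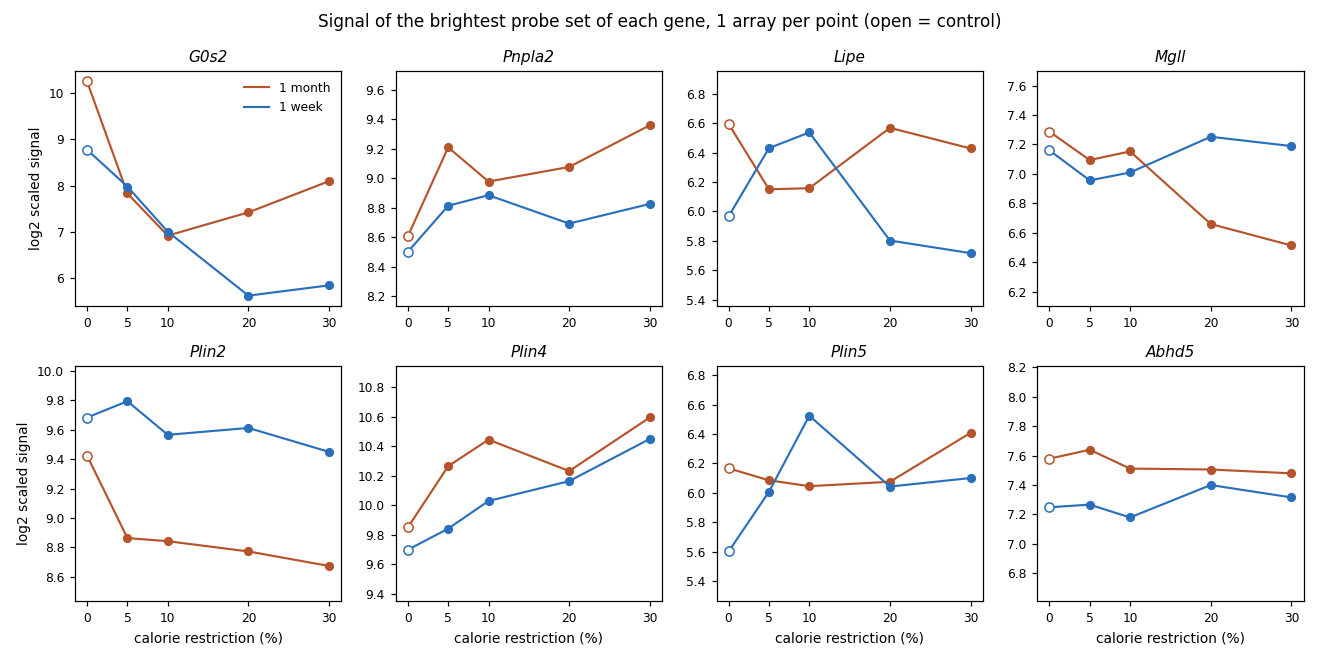
Log2 scaled signal of the brightest probe set of each of the 8 genes (vertical axes, each panel with its own range) against the level of restriction in percent, with 1 array per point, open points for controls and lines joining arrays of a duration. G0s2 lies below its open control at every restricted level of both durations, Plin4 and Pnpla2 lie above theirs, and Plin2 at 1 month runs well below its 1-week line.

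Abhd5, the co-activator of Pnpla2, had 2 probe sets that behaved differently by restriction. The brighter one, 1380665_at, had log2 ratios between −0.10 and 0.15, with 4 of 8 above 0. The dimmer one, 1379854_at, was higher on all 8 restricted arrays, with ratios from 0.09 to 0.56. Its signal after 1 month was 65.6, 63.0, 59.2 and 64.8 at 5%, 10%, 20% and 30% CR, against 51.9 in the control. The 1-week signals were 40.5, 39.6, 34.7 and 48.1, against 32.5 in the control. Neither probe set passed the test of restricted against control, with adjusted p-values of 0.998 and 0.408.

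Pnpla2, the lipase that opens the pathway, was modestly higher on each restricted array. After 1 month its signal was 592, 504, 539.8 and 657 at 5%, 10%, 20% and 30% CR, against 389 in the control. At 1 week these levels gave 449.7, 473, 413.5 and 454, against 362 in the control. No restricted array overlapped a control of either duration, and the highest values were those of 1 month. All 8 ratios were above 0, which 8.29% of all tested probe sets shared. The log2 ratios were 0.37 to 0.75 at 1 month and 0.19 to 0.38 at 1 week.

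Pnpla2 was higher by 0.43 ± 0.10 in restricted muscle (1.34-fold, limma estimate ± SE, adjusted p = 0.0358). It was the 1 member probe set called higher of 13, where 1.13% of all tested probe sets were called higher. This call lay near the threshold: with the doubtful arrays exchanged the difference was 0.23 (adjusted p = 0.6), and leaving out 1 array ended the call in 6 of 10 cases, with 0.30 without the 1-month control (adjusted p = 0.428) and 0.55 without the 1-week control (adjusted p = 0.107). Its slope was 0.12 ± 0.05 per 10 percentage points (adjusted p = 0.252), and among restricted arrays alone 0.03 ± 0.04 (adjusted p = 0.856). Between durations Pnpla2 was 0.30 ± 0.10 higher at 1 month (adjusted p = 0.0689, and 0.0322 with the level of restriction as a block), and on signals as deposited 0.098 higher (adjusted p = 0.465).

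Lipe, the hormone-sensitive lipase, gave different pictures with its 2 probe sets. The brighter one, 1382465_at, had ratios of −0.44 to −0.03 at 1 month and of −0.25 to 0.57 at 1 week, with no common direction. The dimmer one, 1387132_at, had a signal of 45.2, 50.6, 33.7 and 33.1 at 5%, 10%, 20% and 30% CR after 1 month, against 36.8 in the control. On the 1-week arrays it was 28.6, 35.9, 44.4 and 38.0 at these levels, against 5.62 in the control. A single array, the 1-week control, thus stood below the other 9, at a signal under the mean of 19.23 that was required for testing.

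For this Lipe probe set the restricted against control difference was 1.41 ± 0.40 (adjusted p = 0.0977), and with the doubtful arrays exchanged it was −0.06 (adjusted p = 0.977). Without the 1-month control the difference was 2.69 (adjusted p = 0.00395), with the 1-week control as the only control, and without the 1-week control it was 0.12 (adjusted p = 0.922). On log2 of the signal plus 32, which damps dim values, the difference was 0.47 (adjusted p = 0.149). The contrast differed between 1 month and 1 week by −2.57 ± 0.46 (adjusted p = 0.107). The slow fibre mean was lowest on the same 1-week control array, and with that mean as a covariate the Lipe difference was 0.88 (adjusted p = 0.395).

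Mgll, which completes the release of glycerol, had 3 tested probe sets and 1 below the filter. The brightest, 1370831_at, had ratios of −0.77 to −0.13 at 1 month and of −0.20 to 0.09 at 1 week. Its slope differed between 1 month and 1 week by −0.32 ± 0.08 per 10 percentage points (adjusted p = 0.745). Its 2 lowest signals, 101 and 91.4, were those of 20% and 30% CR at 1 month.

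On 1388644_at the Mgll signal after 1 month was 101, 106, 84.5 and 79.6 at 5%, 10%, 20% and 30% CR, against 141 in the control. The 1-week values were 106, 123, 91.8 and 97.0 at these levels, against 108 in the control. All 4 restricted arrays lay below the control at 1 month, whereas at 1 week 3 of 4 did and by less. The restricted against control difference was −0.34 ± 0.15 (adjusted p = 0.339) and the slope −0.16 ± 0.05 per 10 percentage points (adjusted p = 0.138). Without the 1-month control that difference was −0.06 (adjusted p = 0.953), and without the 1-week control −0.61 (adjusted p = 0.22). On the third, 1375247_at, the lowest signal was at 20% CR after 1 week. The fourth, 1375355_at, had signals of 1.04 to 20.3 and was not tested.

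**Figure D2:**
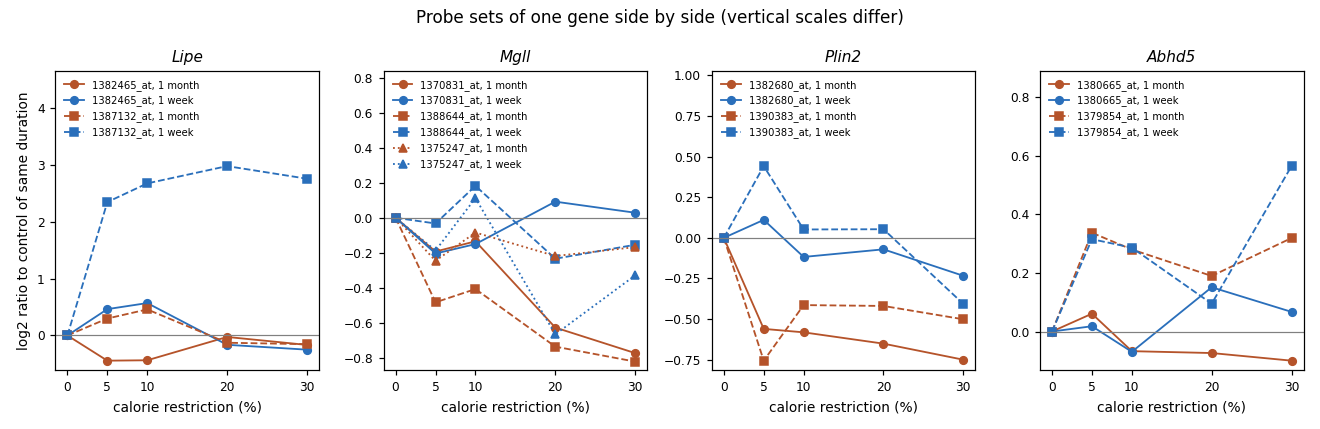
Log2 ratio to the control of the same duration (vertical axes, each panel with its own range) against the level of restriction in percent, for every tested probe set of the 4 genes that have more than one. Both Plin2 probe sets lie below 0 at all 1-month levels, the Mgll probe sets differ in depth at 1 month, and Lipe 1387132_at lies above 2 at all 1-week levels because its 1-week control signal was 5.62.

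Among the droplet coats, Plin4 was higher with more restriction. After 1 month its signal ran from 922 in the control through 1230.5, 1394 and 1203 at 5%, 10% and 20% CR up to 1548 at 30% CR. After 1 week it ran from 830.2 in the control through 917, 1045 and 1147 up to 1399 at 30% CR, each level above the one before. At 1 month 20% CR was the one level below its lower neighbour. The slope was 0.21 ± 0.04 per 10 percentage points (adjusted p = 0.00934), or 1.54-fold over 30 percentage points.

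Plin4 was the 1 member probe set of 13 whose slope passed as higher, where 0.941% of all tested probe sets did. No member passed as lower, where 1.06% of all did. Restricted against control, Plin4 differed by 0.48 ± 0.13 (adjusted p = 0.0663), and all 8 ratios were above 0, from 0.14 to 0.75. Among restricted arrays alone its slope was 0.16 ± 0.04 (adjusted p = 0.154). Over restricted arrays alone no member passed in either direction, where 0.129% of all tested probe sets passed as higher and 0.116% as lower.

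Of 13 measured adipocyte markers 7 passed the filter, and dim genes under it weigh as much in their mean log2 signal as bright ones. This mean of all 13 was 4.59 to 5.57 on the restricted arrays of 1 week, highest at 30% CR, and 4.36 in the control. At 1 month it was 4.79 to 5.21 on restricted arrays and 4.81 in the control. With this mean as a covariate the Plin4 slope was 0.19 (adjusted p = 0.523), and only 3 probe sets of all tested then passed the dose trend. Without the 1-week 30% CR array the slope was 0.19 (adjusted p = 0.0841). The fat-specific coat Plin1 had signals of 1.91 to 13.5, Cidec 1.41 to 16.2 and Lep 0.58 to 3.11, all under the filter, and Adipoq had 13.8 to 39.4. Fabp4 and Lpl were brighter, with mean signals of 825 and 679. Of the 7 tested markers, 5 differences of restricted against control were positive (median 0.27) and 2 negative. For the slopes 6 were positive (median 0.07) and 1 negative. None of the 13 was listed at 0, and their summed signal was 8748 to 10204 on restricted arrays against 11434 in the control at 1 month, and 9439 to 10066 against 9032 at 1 week. Most of that sum came from Car3, which is also abundant in muscle fibres and had a mean signal of 8129 over all arrays.

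Most macrophage markers had positive differences and slopes, but 1 of 9 passed restricted against control as higher and 2 of 9 the dose trend. Of all tested probe sets, 1.13% and 0.941% were called higher in these comparisons. All 9 on the list were measured and tested, none was listed at 0, and 8 of their 9 slopes were positive, with a median of 0.19 beside −0.003 over all tested probe sets. C1qb (slope 0.31, adjusted p = 0.0263) and C1qc (0.38, adjusted p = 0.0161), parts of the first complement component, passed the dose trend. Restricted against control, all 9 differences were positive with a median of 0.36, and Cd163, a scavenger receptor, passed at 1.25 (adjusted p = 0.0123). The Cd163 signal ran from 13.35 to 53.39, its lowest value under the 19.23 required of the mean. With the doubtful arrays exchanged, 1 probe set of all tested passed this comparison. For slow fibre markers, 9 of 10 differences were positive with a median of 0.76. Of their slopes 9 of 10 were positive with a median of 0.31, and none passed either test. The slow fibre mean was lowest on the 1-week control, at 8.28. At 1 month the control, at 9.68, lay within the restricted range of 9.19 to 9.76. The summed macrophage signal was 752 to 1338 on restricted arrays against 735 in the control at 1 month, and 823 to 888 against 705 at 1 week. Of 4 endothelial markers, only Kdr, a receptor for vascular endothelial growth factor, passed the dose trend, with a slope of −0.365 (adjusted p = 0.00153). The slopes of Pecam1 (−0.063), Tek (−0.06) and Vwf (0.159) did not pass. Restricted against control, 3 of the 4 endothelial differences were positive and 1 negative, with a median of 0.17, and none passed. The summed endothelial signal was 374 to 464 on restricted arrays against 472 in the control at 1 month, and 381 to 606 against 488 at 1 week. Beyond fits with the slow fibre mean as a covariate, given among the alternatives, the part of these cells and fibres was not tested. This holds for the differences of G0s2, Pnpla2 and Plin4.

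**Figure D3:**
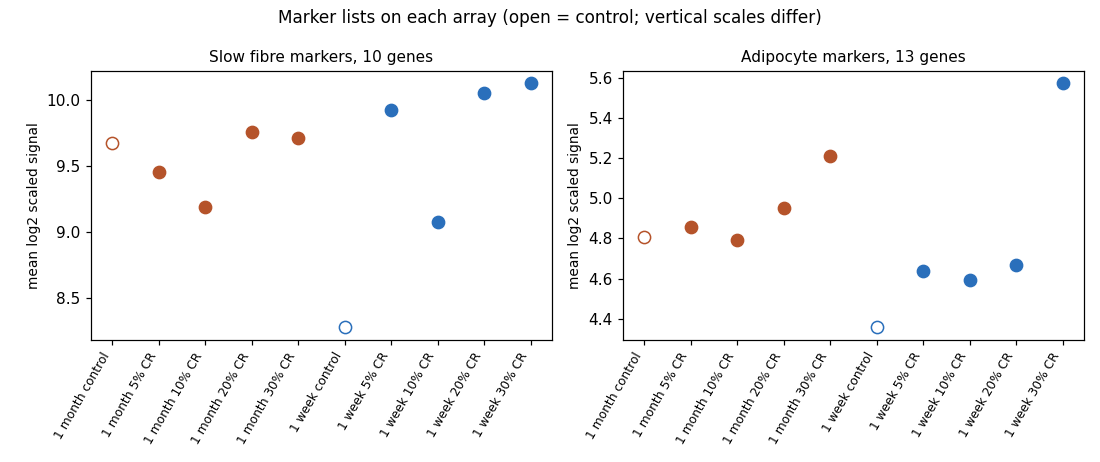
Mean log2 scaled signal (vertical axes, each panel with its own range) of 10 slow fibre markers and of 13 adipocyte markers on each of the 10 arrays, with controls open. The slow fibre mean is lowest on the 1-week control at 8.28, and the adipocyte mean is highest on the 1-week 30% CR array at 5.57.

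Plin2, the general droplet coat, was lower at 1 month than at 1 week. The signal of 1382680_at after 1 month was 687 in the control and 466, 459, 437 and 408.5 at 5%, 10%, 20% and 30% CR. After 1 week it was 822 in the control and 887, 757, 782 and 699 at the same levels. The durations did not overlap, a pattern whose share over all tested probe sets was not counted. The 1-month control was the one 1-month array near the 1-week values. The difference, 1 month minus 1 week, was −0.71 ± 0.09 (adjusted p = 0.000195).

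The second Plin2 probe set, 1390383_at, moved the same way. Its signal was 84.0 in the control and 49.7, 63.0, 62.8 and 59.4 from 5% to 30% CR after 1 month, against 93.6, 127, 97.0, 97.2 and 70.7 from control to 30% CR after 1 week. The difference between durations was −0.60 ± 0.14 (adjusted p = 0.0159). These were 2 of 13 member probe sets called lower at 1 month, where 5.55% of all tested probe sets were.

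By restriction, Plin2 1382680_at was below its control on all 4 restricted arrays at 1 month, with ratios of −0.75 to −0.56, and near it at 1 week, with ratios of −0.23 to 0.11. The restricted against control difference was −0.36 ± 0.11 (adjusted p = 0.132) over both durations and −0.64 with 1-month arrays alone (adjusted p = 0.0286), against −0.08 with 1-week arrays alone (adjusted p = 0.914). The difference of this contrast between durations was −0.56 ± 0.18 (adjusted p = 0.512). The slope was −0.14 ± 0.04 per 10 percentage points (adjusted p = 0.104), and −0.09 ± 0.03 among restricted arrays alone (adjusted p = 0.324). With the doubtful arrays exchanged, both Plin2 probe sets were lower on all 8 restricted arrays.

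Plin5, the coat that links droplets with mitochondria, had 1 probe set with no call. Its signal after 1 month was 67.9, 66.1, 67.5 and 84.9 at 5%, 10%, 20% and 30% CR, against 71.8 in the control. After 1 week it was 64.3, 92.0, 65.9 and 68.6 at these levels, against 48.6 in the control. All 4 restricted arrays thus lay above the control at 1 week, by 0.41 to 0.92, and 1 of 4 did at 1 month. Its neighbour Plin4 was above its control at both durations.

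Both Abhd5 probe sets were higher at 1 month than at 1 week. The signal of 1380665_at was 178 to 199 on the 1-month arrays and 145 to 169 on the 1-week arrays, a difference of 0.26 ± 0.07 (adjusted p = 0.0352, and 0.0656 with the level as a block). For 1379854_at it was 51.9 to 65.6 at 1 month and 32.5 to 48.1 at 1 week, a difference of 0.65 ± 0.13 (adjusted p = 0.00542). Neither probe set overlapped between durations, a pattern whose share over all tested probe sets was not counted. These were 2 of 13 member probe sets called higher at 1 month, where 4.45% of all tested probe sets were.

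Plin4 was 0.24 ± 0.08 higher at 1 month (adjusted p = 0.071, and 0.0498 with the level as a block, but 0.036 higher on signals as deposited, adjusted p = 0.749), and G0s2 1.06 ± 0.45 higher (adjusted p = 0.164). For G0s2 the 1-month value exceeded the 1-week value in the control and at 20% and 30% CR. As deposited, without a common trimmed mean, the smaller Abhd5 difference was 0.06 (adjusted p = 0.576). The 5′ to 3′ ratio of the spiked poly-A controls, which reports on labelling, was 0.721 to 0.825 on the 1-month arrays and 0.262 to 0.383 on the 1-week arrays. Of the markers for other cells and fibre types, Casq2 and Tpm3 (slow fibres), Ttn (muscle), Mrc1 (macrophages) and Kdr were called lower at 1 month, with differences of −0.685 to −0.279, and the macrophage marker Lyz2 higher by 0.46 (adjusted p = 0.00557). As whole lists, 6 of 10 slow fibre differences (median 0.23) and 6 of 9 macrophage differences (median 0.11) were positive. Negative were 5 of 6 muscle differences (median −0.11), all 4 endothelial (median −0.17) and 10 of 11 fast fibre differences (median −0.13). The part of labelling and of these cells in the differences by duration was not tested, beyond fits with the slow fibre mean as a covariate.

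**Figure D4:**
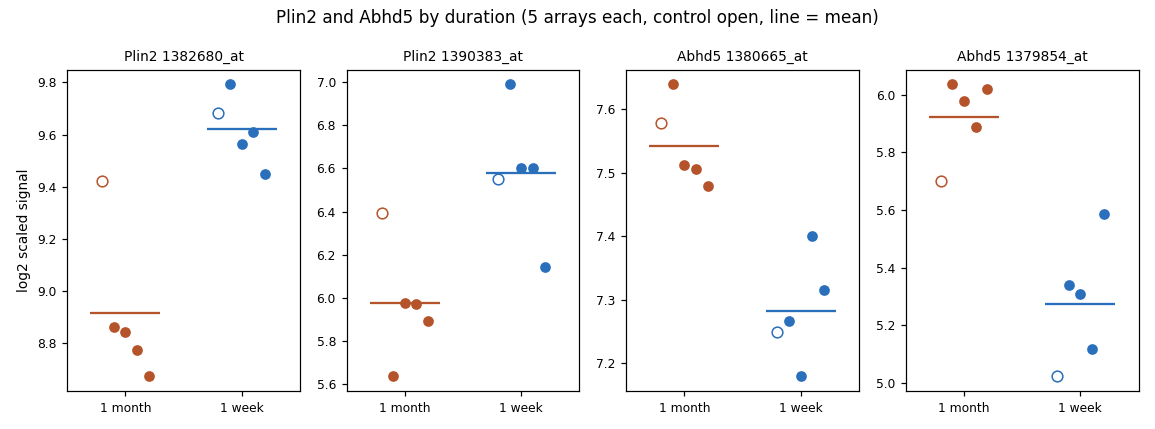
Log2 scaled signal (vertical axes, each panel with its own range) of both Plin2 and both Abhd5 probe sets on the 5 arrays of 1 month and the 5 arrays of 1 week, with controls open and the mean as a line. The 1-month arrays lie below all 1-week arrays for Plin2 1382680_at and above all of them for both Abhd5 probe sets, while Plin2 1390383_at overlaps only through the 1-month control and the 1-week 30% CR array.

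Across the 8 genes, taken by their brightest probe set, the members had no common direction by restriction. The median difference of restricted against control was −0.03 with 3 genes higher and 5 lower, beside −0.01 over all tested probe sets. The median slope was −0.04, beside −0.003 over all. By duration the median was 0.25 with 6 genes higher and 2 lower, beside −0.01 over all. No member passed either test of a difference between durations, for restricted against control or for the slope, and 0% of all tested probe sets did (limma, with 1121 and 940 at an unadjusted p under 0.05).

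Of the 13 tested member probe sets, 3 had all 8 ratios above 0 (Pnpla2, Plin4 and Abhd5 1379854_at), where 8.29% of all tested probe sets did, and 1 had all 8 below 0 (G0s2), where 8.4% did. The 4 ratios of a duration share 1 control array. With the doubtful arrays exchanged, G0s2 was lower in 7 of 8 ratios, and Pnpla2 was higher in 6, Plin4 in 7, Abhd5 1379854_at in 5 and Plin5 in 4. Past 1.5-fold in either direction at 1 month were 3, 2, 4 and 6 of the 13 at 5%, 10%, 20% and 30% CR, where 11%, 11.5%, 10.1% and 12.1% of all tested probe sets were. At 1 week they were 2, 3, 3 and 3 of the 13, where 11.2%, 11.2%, 11.9% and 13.5% of all were. At 30% CR after 1 month these were G0s2, Pnpla2, Plin4, Plin2 1382680_at and 2 probe sets of Mgll. G0s2 and Lipe 1387132_at were past the fold at every 1-week level.

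**Figure D5:**
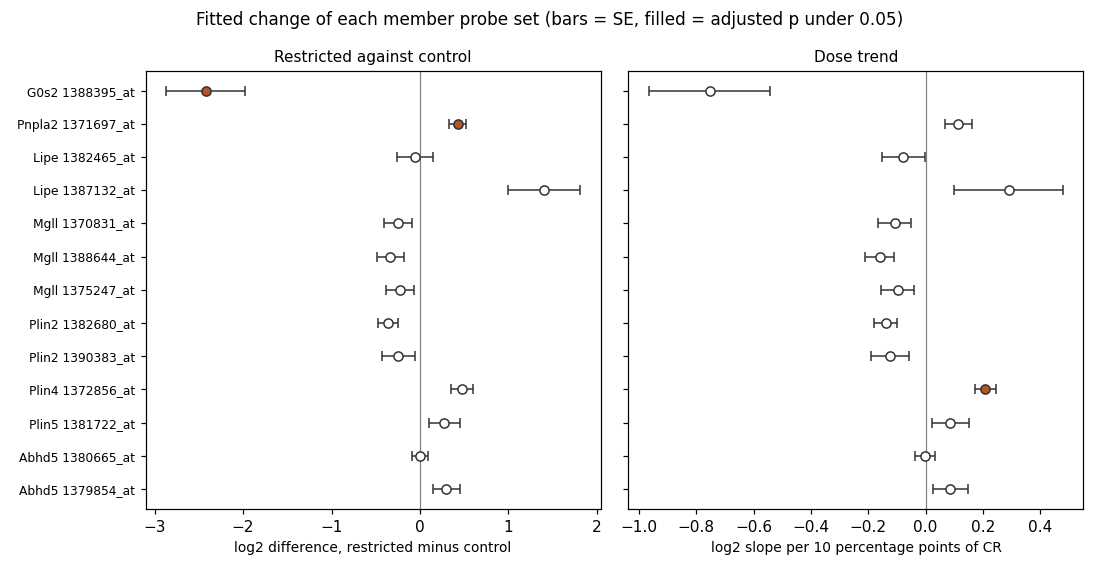
Fitted log2 difference of restricted minus control (left) and log2 slope per 10 percentage points of restriction (right) for the 13 tested member probe sets, as points with SE bars, filled where the adjusted p was under 0.05. G0s2 at −2.43 and Pnpla2 at 0.43 are filled on the left, and Plin4 at 0.21 is filled on the right.

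A wider list of 30 genes of lipolysis control (adrenergic receptors, protein kinase A, phosphodiesterases, fatty acid binding proteins and other lipases) had 28 measured and 20 tested. None was called higher in restricted muscle and 1 lower, Pde4b, a phosphodiesterase that breaks down cyclic AMP, and the median difference was 0.15 beside −0.01 over all tested probe sets, of which 1.13% were called higher and 0.876% lower. Pde4b had a signal of 104, 95.7, 109 and 117 from 5% to 30% CR after 1 month, against 314 in the control. After 1 week it was 139, 130.3, 151 and 124 at these levels, against 212 in the control. All 8 restricted arrays lay below both controls, where 8.4% of all tested probe sets had all 8 ratios below 0. The difference was −1.11 ± 0.16 (adjusted p = 0.00246, and 0.44 with the doubtful arrays exchanged). Without the 1-month control it was −0.65 (adjusted p = 0.0859).

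In the dose trend 2 of the 20 were called higher and none lower, with a median slope of 0.03 beside −0.003 over all tested probe sets, of which 0.941% were called higher and 1.06% lower. Angptl4, a secreted inhibitor of lipoprotein lipase, had a signal after 1 month of 99.3 in the control and of 120.3, 86.5, 160.1 and 313 at 5%, 10%, 20% and 30% CR. After 1 week it was 90.6 in the control and 104, 123, 135 and 193 at these levels. Each restricted array but that of 10% CR at 1 month thus lay above its control. The slope was 0.44 ± 0.07 (adjusted p = 0.00484), and it was 0.54 with 1-month arrays alone (adjusted p = 0.143) and 0.43 with the adipocyte mean as a covariate (adjusted p = 0.407). Hilpda, a small droplet protein also known as an inhibitor of Pnpla2, had 79.4 at 30% CR and 41.8 in the control after 1 month, and 72.7 and 45.3 after 1 week. Its slope was 0.24 ± 0.05 (adjusted p = 0.0236). For Hilpda, leaving out 1 array gave adjusted p-values of up to 0.113.

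By duration 3 of the 20 were called higher at 1 month and 2 lower, where 4.45% and 5.55% of all tested probe sets were. Pnpla7 was higher by 0.61 ± 0.14 (adjusted p = 0.0147), Pde4d by 0.46 ± 0.08 (adjusted p = 0.00288) and Pnpla8 by 0.30 ± 0.06 (adjusted p = 0.00323). On signals as deposited Pnpla8 was 0.095 higher (adjusted p = 0.191). The muscle fatty acid binding protein Fabp3 was lower at 1 month by 0.30 ± 0.08 (adjusted p = 0.0309) and Prkar1a, a regulatory subunit of protein kinase A, by 0.24 ± 0.07 (adjusted p = 0.0384). The Fabp3 controls went the other way, with 2399 at 1 week and 2696 at 1 month. At 10% CR Prkar1a had 1304 at 1 week and 1312 at 1 month. With the level as a block neither passed (adjusted p = 0.0642 for Fabp3 and 0.0532 for Prkar1a). Fabp3 and Prkar1a each kept the call in 9 of 22 alternatives.

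A list of 18 other droplet proteins had 18 measured and 13 tested, and none passed in restricted against control, the dose trend or duration, with medians of 0.01, 0.03 and −0.02. This list held Mief2, which is known as a mitochondrial protein. Of the 7 tested adipocyte markers, Cfd (adipsin) passed the dose trend with a slope of 0.43 ± 0.07 (adjusted p = 0.00802), with signals of 181 at 30% CR and 59.5 in the control after 1 month, and of 146 and 55.7 after 1 week. Cfd kept this call in 19 of 24 alternatives. The call was lost without the 1-week 30% CR array (slope 0.37, adjusted p = 0.0841) and with eBayes without trend (adjusted p = 0.0577), among others. No adipocyte marker passed restricted against control or duration.

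The genes whose pattern was most like that of G0s2 were sought among 12495 tested probe sets that carry 1 gene, over the 10 arrays with the mean of each duration taken off. The highest Pearson correlations were with Zhx2 (0.977), Rig1 (0.967), Chsy1 (0.967), Tead4 (0.963) and Tmx2 (0.954), and the lowest with Cdc42 (−0.98), Jarid2 (−0.976), Tnrc6b (−0.975), Plec (−0.961) and Wipf3 (−0.961). For Pnpla2 the highest were Rpa2 (0.961), Med7 (0.954), Ino80c (0.953), St7l (0.942) and Spindoc (0.94), and the lowest C13h1orf21 (−0.951), Fsd2 (−0.947), Ptpn12 (−0.936), Lmnb1 (−0.934) and Mtfp1 (−0.924). These are the extremes of many correlations over few arrays that share their pools and scaling, and no test was made.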

How the data were processed

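RNA of gastrocnemius muscle was pooled from 5 rats per group and hybridized to 1 Affymetrix Rat Genome array per group. Per the labels, the authors computed MAS5 intensities, deposited unlogged and with neither detection nor change calls. The trimmed mean (2% off each end) of the deposited signal was 86.4 on each 1-month array and 99.6 on each 1-week array. Each array was therefore scaled to a trimmed mean of 100, signals under 0.1 were set to 0.1 and log2 was taken. After removal of 57 control probe sets, those at or above the 50th percentile of mean log2 signal were tested. Of 31042 probe sets, 20826 carried 1 gene in the platform annotation, 436 several and 9780 none. Gene symbols were updated by gene identifier through a RefSeq table of GRCr8. Promoter sequences came from RefSeq, and 7 of the 8 member genes had one, all except Lipe.

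Model fitting used lmFit and trended eBayes of limma 3.58.1 (R 4.3.3), with Benjamini-Hochberg adjustment over all tested probe sets at 0.05. Residual degrees of freedom were 7 for restricted against control, the dose trend and duration, 5 for restricted arrays alone and 6 for both tests of a difference between durations. Restriction entered the duration model as a covariate. Simulated signals with known changes were used to check the fits.

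The members and gene lists were chosen with earlier results of these data known. Every member probe set was described, and other genes of the lipolysis control, droplet protein and adipocyte lists were named with values where they passed restricted against control, the dose trend or duration. Likeness was measured for G0s2 and Pnpla2, and the 5 genes at each end are named.

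Alternatives were quantile normalization, median centring, cyclic loess, signals as deposited, log2 of signal plus 32, no filter, a 70th percentile filter, untrended eBayes, ranks in place of percentages, the level as a block, 1 duration alone, the other probe sets of a gene, leaving out each array in turn, and the exchange of the 1-week control and 5% CR arrays. The slow fibre mean and the adipocyte mean as covariates, and leaving out both doubtful arrays, were added after seeing the data.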

Additional observations from a re-analysis of the deposited data

How the results depend on the processing

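No group had a replicate array, no detection calls were used and dim probe sets have no measured background, so these limits apply to every value. Plin2 1382680_at kept its call by duration in 23 of 23 alternatives (−0.81 to −0.66 when 1 array was left out) and Abhd5 1379854_at in 21 of 21. Without a control, the contrast of restricted against control by duration could not be fitted.

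The G0s2 difference of restricted against control was −2.43 with eBayes without trend (adjusted p = 0.0824), −1.93 with the 1-week control and 5% CR arrays exchanged (0.388), −2.17 in 1-week arrays alone (0.301), −2.42 with the slow fibre mean as a covariate (0.0625) and −2.23 with the adipocyte mean as a covariate (0.0513). It ran from −2.69 to −2.17 when 1 array was left out, and the call was lost without the 1-week control (adjusted p = 0.105) or the 1-month control (0.172).

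The Pnpla2 difference was 0.43 with median centring (adjusted p = 0.107), no filter (0.0547) and eBayes without trend (0.132), 0.23 with the arrays exchanged (0.6), 0.30 in 1-week arrays alone (0.459), 0.55 in 1-month arrays alone (0.108), 0.48 with the slow fibre covariate (0.076), 0.41 with the adipocyte covariate (0.122) and 0.55 without the 1-week control and 5% CR arrays (0.0959). It ran from 0.30 to 0.55 when 1 array was left out, and the call was lost without the 1-month control (0.428), the 1-week control (0.107), the 1-month 5% (0.0583) or 20% CR array (0.0571), or the 1-week 10% (0.0533) or 30% CR array (0.0525).

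The Plin4 slope was 0.21 with eBayes without trend (adjusted p = 0.0864), 0.18 in 1-month arrays alone (0.442), 0.22 with the slow fibre covariate (0.0576) and 0.19 with the adipocyte covariate (0.523). It ran from 0.18 to 0.22 when 1 array was left out, and the call was lost without the 1-week 30% CR array (0.0841).

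The Abhd5 1380665_at difference by duration was 0.056 with signals as deposited (adjusted p = 0.576), 0.26 with no filter (0.0539) and with eBayes without trend (0.053), and 0.25 with the adipocyte covariate (0.086). Arrays of both durations share only their level of restriction, and with that level as a replicate block it was 0.26 (0.0656). It ran from 0.23 to 0.29 when 1 array was left out, and the call was kept without the 1-week 20% CR or the 1-month 30% CR array and lost without any one of the other 8. In the block, Pnpla2 and Plin4 passed by duration (0.0322 and 0.0498) and 1365 probe sets passed in all.

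The Lipe 1387132_at difference of restricted against control turned to −0.062 and its difference between durations to 0.36 with the arrays exchanged. The Pnpla2 slope in restricted arrays alone, never called, turned to −0.03 without the 1-month 30% CR array (−0.03 to 0.054 over all omissions).

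Of all probe sets, 311 passed restricted against control, but 77 with eBayes without trend, 1 with the arrays exchanged, 34 in 1-week arrays alone, 129 in 1-month arrays alone, 78 with the slow fibre covariate, 136 with the adipocyte covariate and 98 without the 1-week control and 5% CR arrays, and 27 (without the 1-week control) to 455 when 1 array was left out, with 112 without the 1-month control. The dose trend had 310, but 196 with median centring, 73 without trend, 161 exchanged, 109 in 1-week and 6 in 1-month arrays alone, 65 with the slow fibre and 3 with the adipocyte covariate, and 86 (without the 1-week 30% CR array) to 368 when 1 array was left out, with 117 and 123 without the 1-week and the 1-month control and 185 without the 1-week 20% CR array. Restricted arrays alone gave 38, but 24 with median centring and 1 without trend, and 6 to 35 when 1 array was left out. Duration gave 1553, but 5263 with signals as deposited, and 1115 to 1710 when 1 array was left out. Restricted against control by duration gave 0, but 2 with quantile normalization, 1 with cyclic loess and 2 with the 70th percentile filter, and 0 to 26 when 1 array was left out, and dose by duration gave 0, with 0 to 2. Member probe sets with 8 ratios of 1 sign numbered 4, but 2 with the arrays exchanged.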
